A study of Hipposideros armiger and Mus musculus with 20 samples.

Results

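The interscapular brown depot (iBAT) and the subcutaneous white depot (sWAT) of ICR mice, an outbred laboratory stock, were compared in animals held at 30 °C for 7 days. The comparison takes 4 of the 20 libraries of the study, chosen by the depot and temperature in their labels: 1 female and 1 male library of iBAT, and 1 female and 1 male library of sWAT. The other libraries are the same mouse depots at 10 °C (4 libraries, also 7 days) and 12 libraries of the great roundleaf bat, which were not analysed here. Total RNA was taken with a kit for lipid-rich tissue and made into Illumina libraries. No transgene, diet or drug is labelled. The labels do not state the age of the mice, the number of animals behind a library or whether the 2 depots of a sex came from 1 animal. Each mouse group holds 1 female and 1 male library, so the 2 libraries of a group differ in animal and sex. The p-values below measure the spread within such pairs, pooled over the 4 mouse groups, those at 10 °C included. Sex, animal and technical differences cannot be told apart in that spread.

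Brown fat cells burn fatty acids in densely packed mitochondria, and the uncoupling protein of their inner membrane turns the energy of the proton gradient into heat. White fat cells store triglyceride in a large droplet, release it as fatty acids, and secrete hormones such as leptin and adiponectin. Noradrenaline from sympathetic nerves drives brown fat, and this drive is known to be low near 30 °C, so the comparison asks what sets the depots apart in warm animals.

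Expression is given in FPKM, fragments scaled to transcript length and library size, as deposited. Of 14871 genes in the table, the 10689 with at least 1 FPKM in at least 2 of the 8 mouse libraries were tested with limma on log2(FPKM + 1), with the spread pooled over the 4 mouse groups. Summed FPKM of the warm libraries ran from 263338 to 293580, and relative depth read from the lowest values from 0.95 to 1.109 of the female iBAT library. The log2 values of the 2 iBAT libraries correlated across genes with r = 0.982, those of the 2 sWAT libraries with r = 0.931, and those of different depots with r from 0.684 to 0.778 (genes are not independent replicates). A single mitochondrial transcript, mt-Co2, held 16.97% and 16.81% of the summed FPKM in iBAT and 2.811% and 4.178% in sWAT. The median log2 difference of all genes was −0.57, against −0.15 after median-ratio scaling and 0.03 after quantile normalization. Differences below are therefore iBAT minus sWAT on the log2(FPKM + 1) scale, relative to that median, and are given ± the standard error with n = 2 libraries per depot. A difference of 1 is 2-fold, and folds of genes at low FPKM are understated. A gene is called at an adjusted p under 0.05 of the coefficient without this shift. Per-library values are given with the female library first.

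Of 10689 genes, 6270 (58.7%) were called, 1144 (10.7%) higher and 5126 (48%) lower in iBAT. That split depended on the scaling: median-ratio scaling called 2025 higher and 2866 lower, and quantile normalization 2500 higher and 2334 lower. Called the same way in all 3 scalings were 3250 genes (30.4%), 1112 (10.4%) higher and 2138 (20%) lower in iBAT. The libraries of the depots did not overlap in 83.8% of genes, with both iBAT values higher in 18.1% and lower in 65.7%. The calls number 3562 without the male iBAT library, 4467 without the female one, 3989 without the female sWAT library and 5469 without the male one, of which 750, 728, 745 and 1073 are higher in iBAT. The lower calls number 2812 without the male iBAT library and 3244 without the female sWAT library. The counts of each gene list below are read against these shares. Among called genes, the largest differences towards iBAT were those of a cytochrome oxidase subunit, a lipid droplet protein and an enzyme of fatty acid import, and the largest towards sWAT were those of a chemokine and antigen receptor genes of lymphocytes.

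**Figure D1:**
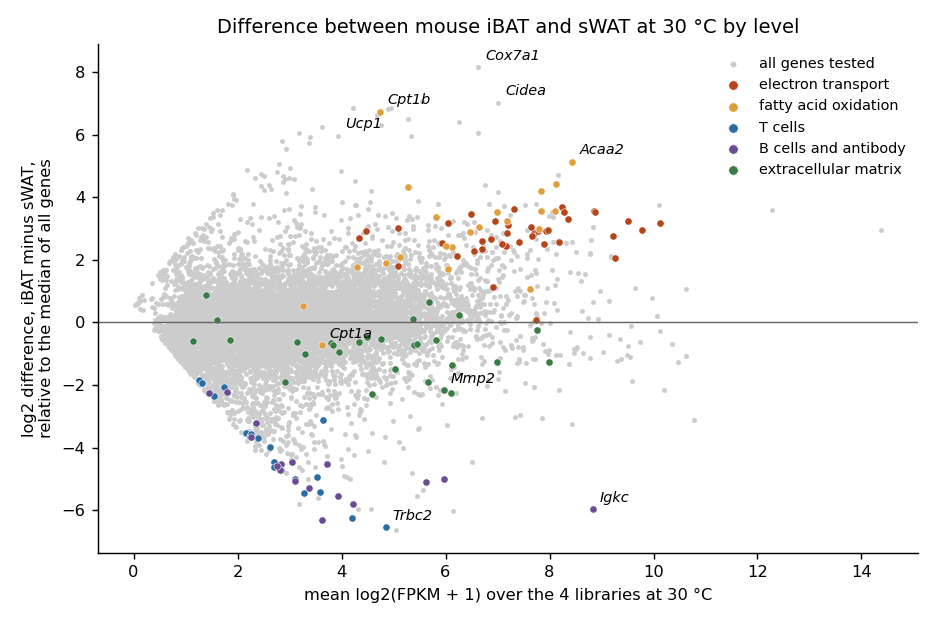
Each point is a gene tested. The x axis is its mean log2(FPKM + 1) over the 4 libraries at 30 °C and the y axis is the log2 difference of iBAT minus sWAT relative to the median of all genes, with 5 gene lists in colour. Electron transport genes lie above 0, fatty acid oxidation genes too except Cpt1a at −0.72, and T and B cell genes lie below 0, down to Trbc2 at −6.54.

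The depot labels were checked against markers. Ucp1 (ENSMUSG00000031710), the uncoupling protein of brown fat mitochondria, stood at 192 and 49.9 FPKM in iBAT and 1.19 and 1.53 FPKM in sWAT, a difference of 5.97 ± 0.66 (adjusted p = 0.00196). The female iBAT library was well above the male one, and both lay far above the sWAT libraries. Cidea, a lipid droplet protein typical of brown fat, stood at 1263 and 1157 FPKM in iBAT and 10.9 and 15.0 FPKM in sWAT (7.03 ± 0.24, adjusted p = 0.00019). Cox7a1, the subunit of cytochrome oxidase used in muscle and brown fat, had the largest difference of all genes named, at 1423 and 1329.5 FPKM in iBAT and 5.80 and 6.54 FPKM in sWAT (8.16 ± 0.32, adjusted p = 0.000305). Zic1, a transcription factor of interscapular brown fat, had 1.77 and 2.01 FPKM in iBAT and 0 and 0 FPKM in sWAT, so it was listed at 0 in both sWAT libraries. It passed the filter through iBAT alone, so its direction was fixed by the filter.

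Other brown fat markers were low in both warm depots and were not called. Dio2, which activates thyroid hormone, stood at 0.428 and 0.261 FPKM in iBAT and 0.176 and 0.184 FPKM in sWAT (0.76 ± 0.25, adjusted p = 0.536). Prdm16, a regulator of brown fat fate, had 1.56 and 1.34 FPKM in iBAT and 0.629 and 1.10 FPKM in sWAT, with both iBAT values above both sWAT values (0.98 ± 0.34, adjusted p = 0.324). Lhx8, a homeobox gene of brown fat, had 3.47 and 2.55 FPKM in iBAT and 1.04 and 1.77 FPKM in sWAT (1.32 ± 0.28, adjusted p = 0.0578), and was called with median-ratio scaling (adjusted p = 0.0241), quantile normalization (adjusted p = 0.0181) and in a fit of the warm libraries alone (adjusted p = 0.0498). The hormone gene Fgf21 was near 0 in all 4 libraries, at 0 and 0.0709 FPKM in iBAT and 0 and 0.306 FPKM in sWAT.

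White fat markers split. Hoxc10 was at 0 and 0.0314 FPKM in iBAT and 5.74 and 12.3 FPKM in sWAT (−2.65 ± 0.33, adjusted p = 0.00144), nearly absent from iBAT. It was at 0 in both cold iBAT libraries too. Hoxc10 thus passed the filter through sWAT alone, so its direction was fixed by the filter and its call is no support for the depot labels. Nnat had 12.2 and 39.5 FPKM in iBAT and 66.2 and 345 FPKM in sWAT with both sWAT values above both iBAT values, but was not called (−2.15 ± 1.5, adjusted p = 0.155). The hormones did not mark the depot: leptin (Lep) had 30.2 and 57.4 FPKM in iBAT and 20.6 and 152 FPKM in sWAT and adiponectin (Adipoq) had 1047 and 852 FPKM in iBAT and 881 and 1716 FPKM in sWAT, and neither was called (0.14 ± 0.83, adjusted p = 0.669, and 0.19 ± 0.40, adjusted p = 0.427). In both genes the female iBAT library was above the female sWAT library and the male iBAT library below the male sWAT library. Fabp4 and Retn were not analysed here, and Tcf21 was under the filter.

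**Figure D2:**
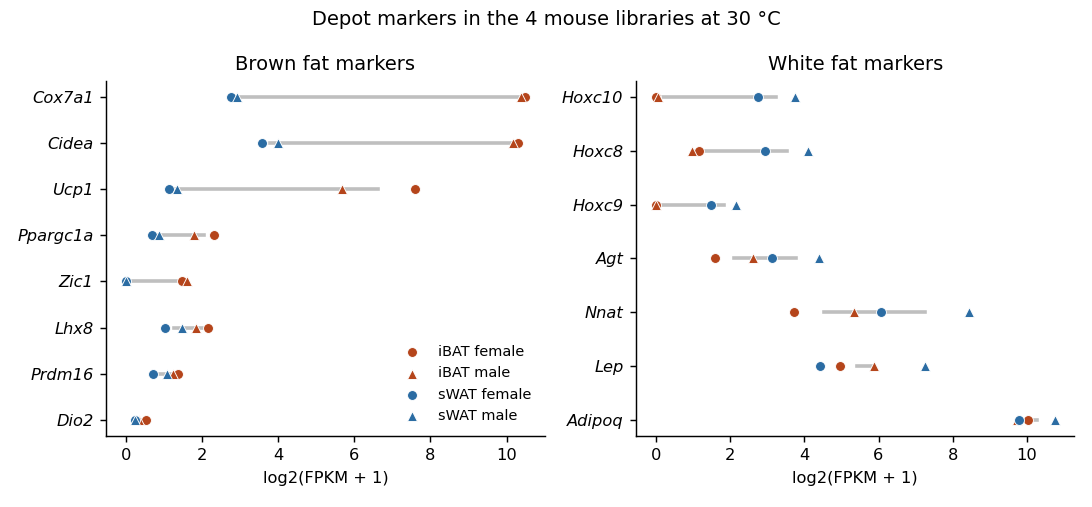
Marker genes on the y axis and log2(FPKM + 1) on the x axis, 1 point per library at 30 °C (circles female, triangles male), with a grey bar between the 2 depot means. Cox7a1, Cidea, Ucp1 and Zic1 separate the depots in one direction and Hoxc8, Hoxc9 and Hoxc10 in the other. Zic1, Hoxc9 and Hoxc10 passed the filter through 1 depot alone. The points of Lep and Adipoq mix, and Dio2 lies near 0 in all 4 libraries.

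Thermogenic genes were mostly higher in warm iBAT. Of 34 tested of 41 listed, 25 were higher, all 25 under all 3 scalings, and 1, Irf4, was lower with the values as deposited alone. Their median difference was 2.46, with a range from −2.63 for Cited1, a beige fat marker that was not called (adjusted p = 0.0514, and 0.028 in a fit of the warm libraries alone), to 8.16 for Cox7a1. Among the members higher were genes of fatty acid import and transport and of guanine nucleotide synthesis. Cpt1b, the muscle type of the enzyme that admits long-chain fatty acids to mitochondria, stood at 222 and 229.8 FPKM in iBAT and 1.74 and 2.66 FPKM in sWAT (6.74 ± 0.36, adjusted p = 0.000757). Slc27a2, an acyl-CoA synthetase of fatty acid transport, had 44.3 and 39.2 FPKM in iBAT and 0.654 and 0.124 FPKM in sWAT (5.54 ± 0.28), below 1 FPKM in both sWAT libraries. Impdh1, which makes guanine nucleotides, had 214 and 147 FPKM in iBAT and 21.3 and 15.2 FPKM in sWAT (3.80 ± 0.23).

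Several secreted, transport and droplet proteins known from brown fat were higher too. Kng2, a kininogen gene that has a close relative in mouse, so that the split of its reads is uncertain, had 49.3 and 38.4 FPKM in iBAT and 0.243 and 0.142 FPKM in sWAT (5.80 ± 0.37). Otop1, a proton channel, had 17.0 and 28.6 FPKM in iBAT and 0.224 and 0.35 FPKM in sWAT (4.74 ± 0.31), under 1 FPKM in sWAT. Plin5, which ties lipid droplets to mitochondria, had 33.3 and 42.8 FPKM in iBAT and 1.18 and 3.18 FPKM in sWAT (4.26 ± 0.44), while Plin1, the perilipin of all fat cells, had 220.0 and 320.0 FPKM in iBAT and 97.7 and 313 FPKM in sWAT and was not called (1.17 ± 0.55, adjusted p = 0.372). The male sWAT library lay within the iBAT range of Plin1 and the female sWAT library below it. Nrg4, a growth factor secreted by brown fat, was called at 1.41 ± 0.26 with 11.8 and 10.3 FPKM in iBAT and 4.22 and 7.70 FPKM in sWAT, but not without the female iBAT, the male iBAT or the female sWAT library, nor in a fit of the warm libraries alone (adjusted p between 0.00838 and 0.136 over the alternatives).

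The 3 uncoupling protein genes did not move alike. Ucp3, the form known from muscle, was higher, at 10.2 and 15.6 FPKM in iBAT and 2.16 and 3.80 FPKM in sWAT (2.38 ± 0.28). Ucp2, the form widely expressed in immune and other cells, was lower, at 15.6 and 16.7 FPKM in iBAT and 115 and 68.3 FPKM in sWAT (−1.81 ± 0.31, adjusted p = 0.00221). In iBAT, Ucp1 was the highest of the 3 in FPKM in both libraries, and in sWAT Ucp2 was.

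Genes of electron transport were higher in iBAT almost without exception. Of 39 tested of 59 listed, 38 were higher, the same 38 in all 3 scalings, around a median difference of 2.87. They cover the 4 complexes that carry electrons and the ATP synthase. Ndufb8, of complex I, had 1286 and 1351 FPKM in iBAT and 155 and 173 FPKM in sWAT (3.58 ± 0.22, adjusted p = 0.000941). Sdhb, of succinate dehydrogenase, had 863 and 831 FPKM in iBAT and 109.7 and 144 FPKM in sWAT (3.31 ± 0.26). Uqcrc1, of complex III, had 814 and 965 FPKM in iBAT and 91.4 and 114 FPKM in sWAT (3.68 ± 0.25). These 3 genes each differed by about the same amount, with the 2 libraries of a depot close to each other.

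Cytochrome oxidase subunits were higher in iBAT by unlike amounts. Cox7b, a small subunit, had 477 and 468 FPKM in iBAT and 83.6 and 84.5 FPKM in sWAT (3.05 ± 0.18), and Cox6a1, the liver form of subunit 6A, 1671 and 2047 FPKM in iBAT and 255 and 329 FPKM in sWAT (3.24 ± 0.27). Cox7a1 exceeded both of these differences by over 4 on the log2 scale. Its widely expressed counterpart, Cox7a2, was not analysed here. Cox6a2, the muscle form of 6A, had 35.5 and 26.5 FPKM in iBAT and 6.39 and 4.17 FPKM in sWAT and was not called (2.93 ± 1.20, adjusted p = 0.128, and 0.00325 in a fit of the warm libraries alone). In ATP synthase, Atp5b, the catalytic beta subunit, stood at 2661 and 2863 FPKM in iBAT and 354 and 569 FPKM in sWAT (3.19 ± 0.40). Atp5g3, which encodes a copy of the c subunit of the rotor, was the 1 member not called, at 175 and 183 FPKM in iBAT and 225 and 281 FPKM in sWAT (0.09 ± 0.18, adjusted p = 0.0513). Quantile normalization called it lower (adjusted p = 0.0219), as did the fit without the female sWAT library.

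The 2 transcripts of the mitochondrial genome in the table stood at high levels in both depots. mt-Nd2, of complex I, had 12313 and 16215 FPKM in iBAT and 1457 and 2059 FPKM in sWAT (3.60 ± 0.59, adjusted p = 0.00601), a call lost without the male iBAT library and without the filter on low values. mt-Co2, of cytochrome oxidase, had 48062 and 49353 FPKM in iBAT and 7874 and 11001 FPKM in sWAT, both iBAT values above both sWAT values, and was not called (2.96 ± 1.13, adjusted p = 0.107). It was called higher without the variance trend, with a filter of 5 FPKM, or without the female or the male cold sWAT library. The fit of the warm libraries alone did not call it (adjusted p = 0.22).

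TCA cycle genes had a larger median difference than electron transport genes, 3.31 over the 21 tested of 22 listed, of which 20 were higher and 1 was lower in all 3 scalings; whether the 2 lists differ was not tested. Sucla2, the ATP-forming succinyl-CoA ligase subunit, had 451 and 366 FPKM in iBAT and 22.3 and 34.1 FPKM in sWAT (4.41 ± 0.36, adjusted p = 0.00127), while Suclg2, its GTP-forming counterpart, had 32.6 and 26.5 FPKM in iBAT and 12.7 and 15.4 FPKM in sWAT (1.59 ± 0.18). In FPKM, the ATP-forming subunit was over 10 times the GTP-forming one in both iBAT libraries. Me2, a mitochondrial malic enzyme, was the member lower, at 3.38 and 2.59 FPKM in iBAT and 19.3 and 19.3 FPKM in sWAT (−1.78 ± 0.24, adjusted p = 0.00143). Me3, another mitochondrial malic enzyme that is not in the list, was higher in all 3 scalings (4.93 ± 0.34, adjusted p = 0.00102).

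Most genes of fatty acid oxidation were higher in iBAT. Of 22 tested of 26 listed, 18 were higher in all 3 scalings, with a median of 3.03. Slc25a20, the carrier that brings acylcarnitine inside, had 139 and 156 FPKM in iBAT and 18.4 and 22.2 FPKM in sWAT (3.38 ± 0.28). The chain-length dehydrogenases Acadvl, for very long chains, and Acadl, for long chains, had 979 and 1135 FPKM in iBAT and 59.5 and 87.9 FPKM in sWAT (4.42 ± 0.31) and 783 and 824 FPKM in iBAT and 56.9 and 71.9 FPKM in sWAT (4.20 ± 0.32). Acaa2, the thiolase of the last step, had 1595 and 1794 FPKM in iBAT and 63.1 and 78.4 FPKM in sWAT (5.14 ± 0.34, adjusted p = 0.000946), the largest difference in the list after Cpt1b. The 2 genes of the trifunctional protein differed in level: Hadhb had 159 and 128 FPKM in iBAT and 6.38 and 14.0 FPKM in sWAT (4.34 ± 0.48) and Hadha 348 and 379 FPKM in iBAT and 49.3 and 65.2 FPKM in sWAT (3.23 ± 0.30), both higher in iBAT.

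Cpt1a, the liver type of the importing enzyme, ran the other way from Cpt1b, at 5.80 and 8.16 FPKM in iBAT and 22.0 and 15.2 FPKM in sWAT (−0.72 ± 0.27, adjusted p = 0.00776). That call was lost with median-ratio scaling (adjusted p = 0.0713) and quantile normalization (adjusted p = 0.091). In FPKM, Cpt1b was above Cpt1a in both iBAT libraries and Cpt1a above Cpt1b in both sWAT libraries, an order that no scaling of whole libraries changes. Acad9, a dehydrogenase that also serves in complex I assembly, had 9.63 and 7.28 FPKM in iBAT and 9.06 and 8.52 FPKM in sWAT and was not called (0.51 ± 0.19, adjusted p = 0.793). Of the 22 genes, 19 had both iBAT values above both sWAT values and 1 had both below.

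**Figure D3:**
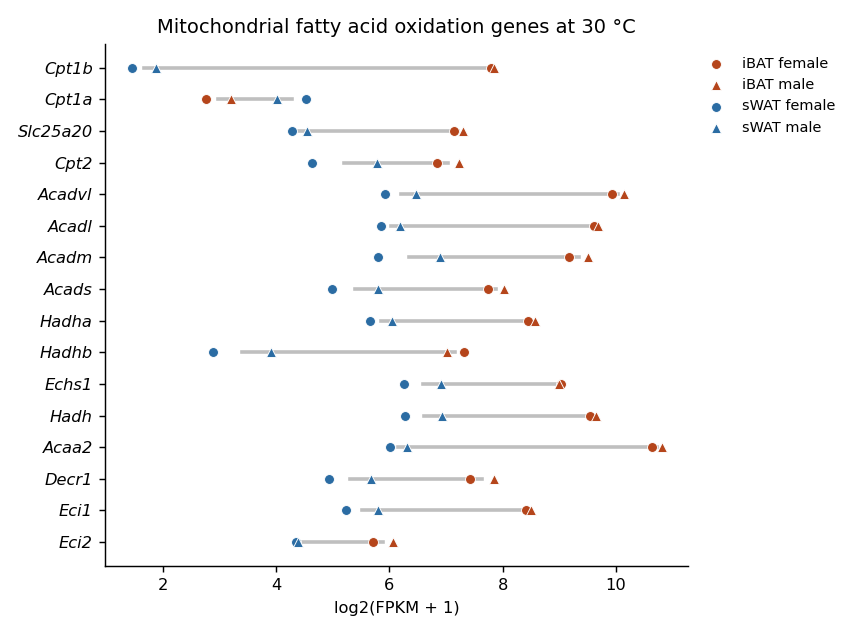
Shown are 16 of the 22 tested fatty acid oxidation genes, without Acad9 and 5 others, in order of the pathway from the top, against log2(FPKM + 1), 1 point per library at 30 °C (circles female, triangles male), with a grey bar between the depot means. In every gene drawn but Cpt1a, both iBAT libraries lie above both sWAT libraries.

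The regulators of mitochondrial genes were not uniformly higher. Of 24 tested genes of mitochondrial biogenesis and dynamics (35 listed), 16 were higher, all in 3 scalings, and 3 were lower, 1 of them in 3 scalings. Of the PGC-1 coactivators, Ppargc1b had 24.2 and 26.3 FPKM in iBAT and 1.36 and 1.06 FPKM in sWAT (4.15 ± 0.35, adjusted p = 0.00135), and Ppargc1a, the form that cold is known to induce, 3.96 and 2.44 FPKM in iBAT and 0.602 and 0.818 FPKM in sWAT (1.85 ± 0.38, adjusted p = 0.0262). The call on Ppargc1a did not hold without any 1 of the 4 warm libraries, and that on Ppargc1b held without each of them. Esrra, the nuclear receptor ERR alpha, had 49.0 and 44.4 FPKM in iBAT and 14.9 and 16.1 FPKM in sWAT (2.11 ± 0.16), and Mfn1, which fuses mitochondria, 23.6 and 22.0 FPKM in iBAT and 6.86 and 6.92 FPKM in sWAT (2.16 ± 0.17). Fis1, an adaptor known for mitochondrial fission, was lower, at 33.9 and 34.8 FPKM in iBAT and 101 and 90.1 FPKM in sWAT (−0.88 ± 0.13, adjusted p = 0.00122). Tfam, which packs mitochondrial DNA, had 17.5 and 11.3 FPKM in iBAT and 15.8 and 18.2 FPKM in sWAT and was not called (0.32 ± 0.28, adjusted p = 0.462).

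Genes of the mitochondrial ribosome followed with smaller differences. Of 57 tested, 30 were higher in all 3 scalings, around a median of 1.01, and 1, Mrps26, was called lower with the values as deposited alone. Relative to the median of all genes Mrps26 was at 0.09, and its call was lost without any 1 of the 4 warm libraries. Without the female iBAT library 18 were higher, and with median-ratio scaling and quantile normalization 47 and 48 were. Mrpl34 had 124 and 112 FPKM in iBAT and 27.0 and 30.6 FPKM in sWAT (2.57 ± 0.15) and Mrpl42 122 and 109 FPKM in iBAT and 36.8 and 38.8 FPKM in sWAT (2.16 ± 0.13), the 2 largest differences. The cytosolic ribosome went the other way: of 36 genes none was higher and 27 were lower, 18 of them in all 3 scalings, with a median of −0.84. Rpl13a had 76.6 and 95.9 FPKM in iBAT and 335 and 304 FPKM in sWAT (−1.31 ± 0.31), and such genes have many near copies in the genome, so that the counting could split their reads. The count lower was 14 without the male iBAT library and 17 without the female sWAT library.

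Genes of fatty acid synthesis were called higher more often than all genes, and lower less often. Of 18 tested of 21 listed, 4 were higher in all 3 scalings, against 10.4% of all genes. With the values as deposited alone 3 were lower, against 48% of all genes, and none of these held without the male iBAT library. The median was 0.76. Acacb, the acetyl-CoA carboxylase of the mitochondrial surface whose product restrains fatty acid import, had 52.1 and 63.4 FPKM in iBAT and 4.32 and 6.89 FPKM in sWAT (3.75 ± 0.22, adjusted p = 0.000941). Mlxipl, the glucose-responsive transcription factor ChREBP, had 40.2 and 35.3 FPKM in iBAT and 4.26 and 10.8 FPKM in sWAT (2.87 ± 0.41), and Tkt, transketolase, 504 and 648 FPKM in iBAT and 125 and 157 FPKM in sWAT (2.59 ± 0.27). Among the enzymes of the pathway itself, Fasn, fatty acid synthase, had 226 and 339.9 FPKM in iBAT and 79.4 and 262 FPKM in sWAT (1.51 ± 0.57, adjusted p = 0.196), and Acly, ATP citrate lyase, 33.8 and 39.2 FPKM in iBAT and 23.8 and 30.2 FPKM in sWAT (1.00 ± 0.34, adjusted p = 0.304). Neither was called.

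Fatty acid uptake genes were mixed. Of 12 tested of 18 listed, 3 were higher, 2 of them in all 3 scalings, and 2 lower with the values as deposited alone. None was lower without the female iBAT, the male iBAT or the female sWAT library, and 1 was without the male sWAT library. Vldlr, a lipoprotein receptor, had 18.3 and 20.5 FPKM in iBAT and 4.9 and 7.61 FPKM in sWAT (2.09 ± 0.29), while Cd36, the main fatty acid transporter of fat cells, had 308 and 381 FPKM in iBAT and 136 and 354 FPKM in sWAT and was not called (1.21 ± 0.51, adjusted p = 0.308). The male sWAT library was within the iBAT range of Cd36 and the female sWAT library was below it.

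Triglyceride and lipolysis genes were higher for 13 of 28 tested (31 listed), 10 of them in all 3 scalings, and lower for 2, 1 of them in all 3 scalings, with a median of 1.35. The count higher was 7 without the male iBAT library, and the count lower 1 without the female iBAT or the male sWAT library. Gpd2, the mitochondrial enzyme of the glycerol phosphate shuttle, had 61.4 and 67.4 FPKM in iBAT and 6.10 and 7.77 FPKM in sWAT (3.62 ± 0.18, adjusted p = 0.00076). Fitm1, a protein of lipid droplet formation known from muscle, had 9.52 and 9.83 FPKM in iBAT and 0.204 and 0.117 FPKM in sWAT (3.78 ± 0.51), below 1 FPKM in sWAT. Pnpla2, the lipase ATGL, had 937 and 1061 FPKM in iBAT and 211 and 537 FPKM in sWAT and was called with the values as deposited (2.14 ± 0.44, adjusted p = 0.0209) but not with quantile normalization, without the female iBAT, male iBAT or female sWAT library, or in the fit of the warm libraries alone. Lpin2, a phosphatidate phosphatase, was lower, at 2.01 and 2.25 FPKM in iBAT and 7.87 and 5.97 FPKM in sWAT (−0.76 ± 0.20).

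Genes of glucose use were higher for 13 of 20 tested (30 listed), all 13 in 3 scalings, with a median of 1.82, and for 7 without the male iBAT library. Pdk4, the kinase that shuts the pyruvate dehydrogenase complex when fat is burnt, had 590.4 and 725 FPKM in iBAT and 26.0 and 6.98 FPKM in sWAT (6.05 ± 0.83), and Pdk1, a kinase of the same family, 19.3 and 18.8 FPKM in iBAT and 5.07 and 5.22 FPKM in sWAT (2.28 ± 0.16). Pfkl, a phosphofructokinase, had 71.4 and 78.4 FPKM in iBAT and 25.9 and 25.5 FPKM in sWAT (2.08 ± 0.17), and Ldhb, the lactate dehydrogenase subunit of oxidative tissues, 233 and 191 FPKM in iBAT and 36.7 and 46.9 FPKM in sWAT (2.89 ± 0.29). Slc2a4, the insulin-responsive glucose transporter, had 102 and 94.7 FPKM in iBAT and 17.6 and 63.4 FPKM in sWAT (2.09 ± 0.51, adjusted p = 0.0395), and this call did not hold without the female or the male iBAT library, without any 1 of the 4 cold libraries, without the filter on low values or in the fit of the warm libraries alone (highest adjusted p = 0.134). Its male sWAT value was over 3 times its female sWAT value.

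Cholesterol synthesis stood near the median of all genes, at 0.10, with 1 of 17 tested (20 listed) higher and 2 lower in all 3 scalings. As deposited 1 was higher and 6 lower, with median-ratio scaling 4 and 2, and with quantile normalization 6 and 2. Fdft1, squalene synthase, was the one higher in all 3 scalings, at 50.7 and 60.3 FPKM in iBAT and 11.3 and 14.0 FPKM in sWAT (2.63 ± 0.32, adjusted p = 0.00308). Srebf2, the sterol-sensing transcription factor, was lower at 7.69 and 5.93 FPKM in iBAT and 27.6 and 19.7 FPKM in sWAT (−1.08 ± 0.32, adjusted p = 0.006). With all libraries 6 genes of the list were lower, and without the male iBAT or the female sWAT library 2 and 3 were.

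Of the creatine and calcium cycles that can use energy without Ucp1, 2 genes were higher and 1 lower of 12 tested (16 listed). Over all genes, 10.7% were higher and 48% lower. Slc6a8, the creatine transporter, had 17.3 and 14.8 FPKM in iBAT and 5.69 and 3.59 FPKM in sWAT (2.19 ± 0.22, adjusted p = 0.00229). Ckb, the brain-type creatine kinase, had 36.6 and 11.6 FPKM in iBAT and 16.9 and 13.9 FPKM in sWAT and was not called (0.99 ± 0.48, adjusted p = 0.469), with the male iBAT library below both sWAT libraries. Ckmt2, the mitochondrial creatine kinase of muscle, had 21.7 and 16.7 FPKM in iBAT and 0.0415 and 0 FPKM in sWAT and a difference of 4.87 ± 1.56 that was not called (adjusted p = 0.0508), but was in the fit of the warm libraries alone (adjusted p = 0.000561). That fit called 6 members higher, and without the female iBAT or the male sWAT library 1 was. Ckmt2 and several other members are also muscle genes, which are described below.

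Genes of adrenergic and cAMP signalling were called higher more often than all genes, and lower less often. Of 27 tested of 37 listed, 9 were higher and 4 lower in all 3 scalings, against 10.4% and 20% of all genes. Among receptors, Adrb1 had 5.15 and 4.05 FPKM in iBAT and 0.756 and 0.69 FPKM in sWAT (2.27 ± 0.18, adjusted p = 0.00148), and Adra1d 12.4 and 14.5 FPKM in iBAT and 1.8 and 2.66 FPKM in sWAT (2.74 ± 0.33). Adrb3, the beta receptor of fat cells, had the highest FPKM of the 3 in every library, at 44.5 and 43.0 FPKM in iBAT and 50.3 and 95.8 FPKM in sWAT and was not called (−0.08 ± 0.38, adjusted p = 0.175). Relative to the median of all genes, Adrb3 was higher in iBAT in females (0.39) and lower in males (−0.57).

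Downstream, the cAMP-dependent kinase genes were higher for Prkaca, the catalytic subunit, at 127 and 124 FPKM in iBAT and 31.9 and 47.0 FPKM in sWAT (2.24 ± 0.21), and Prkar2b, the regulatory subunit of fat, at 265 and 237 FPKM in iBAT and 28.8 and 97.1 FPKM in sWAT (2.79 ± 0.54, adjusted p = 0.0127), a call lost without the female or the male iBAT library. Rgs2, which ends signalling of Gq-coupled receptors, had 89.0 and 81.8 FPKM in iBAT and 14.5 and 7.29 FPKM in sWAT (3.5 ± 0.51). The phosphodiesterases, which break cAMP down, split: Pde4d was higher at 7.27 and 8.09 FPKM in iBAT and 2.07 and 1.81 FPKM in sWAT (2.13 ± 0.23) and Pde1b lower at 3.01 and 2.77 FPKM in iBAT and 13.1 and 14.5 FPKM in sWAT (−1.36 ± 0.19). Adcy7, an adenylyl cyclase abundant in blood cells, was lower at 1.55 and 1.15 FPKM in iBAT and 25.7 and 17.3 FPKM in sWAT (−2.67 ± 0.31, adjusted p = 0.0013).

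Regulators of brown fat fate were called higher more often than all genes, and lower less often. Of 28 tested of 29 listed, 6 were higher and 1 lower in all 3 scalings, against 10.4% and 20% of all genes. Their median was 0.82. With the values as deposited 7 were lower, against 48% of all genes. With median-ratio scaling 9 were higher and 2 lower, and with quantile normalization 9 and 1. Ppara, the fatty acid receptor that drives oxidation genes, had 31.0 and 26.3 FPKM in iBAT and 0.288 and 0.894 FPKM in sWAT (4.82 ± 0.57, adjusted p = 0.00237), under 1 FPKM in both sWAT libraries. Rxrg, a partner of such receptors, had 19.6 and 20.1 FPKM in iBAT and 3.15 and 7.56 FPKM in sWAT (2.38 ± 0.38). Ebf2, a selector of brown precursors, had 22.5 and 14.4 FPKM in iBAT and 5.15 and 7.75 FPKM in sWAT (1.95 ± 0.38, adjusted p = 0.0209), a call lost without the female iBAT or the female sWAT library. Pparg, the master regulator of fat cells, had 90.9 and 90.9 FPKM in iBAT and 26.7 and 91.3 FPKM in sWAT and was not called (1.43 ± 0.51, adjusted p = 0.183), with the male sWAT library as high as both iBAT libraries. Without the female iBAT or the female sWAT library, 2 genes of the list were higher, and the lower ones numbered 2 and 4, against 1 without the male iBAT and 4 without the male sWAT library. Cebpd, an early factor of fat cell differentiation, was the 1 lower in all 3 scalings at 4.81 and 4.97 FPKM in iBAT and 29.6 and 13.9 FPKM in sWAT (−1.29 ± 0.44), and that call was lost without either iBAT library or the female sWAT library.

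Of 33 measured Hox genes, which record position along the body, 20 passed the filter, and 2 were higher and 3 lower in all 3 scalings, shares no larger than those of all genes. As deposited 2 were higher and 7 lower, with median-ratio scaling 3 and 5, and with quantile normalization 7 and 3. Without the female iBAT, the male iBAT or the female sWAT library 1 was higher. Hoxa5 had 16.0 and 13.0 FPKM in iBAT and 2.66 and 3.5 FPKM in sWAT (2.50 ± 0.20, adjusted p = 0.00144), the largest difference towards iBAT. The 3 lower ones were Hoxc8 at 1.25 and 0.944 FPKM in iBAT and 6.67 and 16.3 FPKM in sWAT (−1.89 ± 0.47), Hoxc9 at 0 and 0 FPKM in iBAT and 1.82 and 3.44 FPKM in sWAT (−1.25 ± 0.26) and Hoxc10. Hoxc9 was listed at 0 in both iBAT libraries, so the size of its difference rests on the pseudocount and no fold is given. Hoxc6, further forward in the same cluster, had 6.14 and 5.02 FPKM in iBAT and 7.09 and 17.0 FPKM in sWAT and was not called (−0.31 ± 0.36, adjusted p = 0.0742), and Hoxc4 had 3.56 and 2.55 FPKM in iBAT and 1.44 and 2.80 FPKM in sWAT and was not called (0.97 ± 0.27, adjusted p = 0.229). Genes that passed the filter through 1 depot alone, such as Hoxc9, Hoxc10 and Zic1, had to differ, and counts over them are no support for a depot difference.

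Of the other position and depot markers, 14 of 25 in the table passed the filter, and 3 were higher and 4 lower in all 3 scalings. Mpzl2, an adhesion protein known from brown fat, had 22.5 and 18.5 FPKM in iBAT and 3.29 and 2.51 FPKM in sWAT (3.04 ± 0.30, adjusted p = 0.0019). Tbx1 and Tmem26, both known as markers of beige cells in white fat, were lower, at 0.0324 and 0.101 FPKM in iBAT and 1.84 and 1.87 FPKM in sWAT (−0.85 ± 0.20) and 0.0107 and 0 FPKM in iBAT and 1.25 and 1.14 FPKM in sWAT (−0.55 ± 0.18). Shox2, a homeobox gene of white fat, had 0.139 and 0.23 FPKM in iBAT and 2.88 and 3.58 FPKM in sWAT (−1.26 ± 0.18). Tbx1, Tmem26 and Shox2 were under 1 FPKM in all iBAT libraries, warm and cold, and passed the filter through sWAT alone. Their direction was thus fixed by the filter and is no support for a depot difference. Tbx15, a T-box gene of both kinds of fat, had 1.34 and 1.81 FPKM in iBAT and 3.32 and 3.97 FPKM in sWAT and was called lower with the values as deposited alone (−0.28 ± 0.24, adjusted p = 0.0214). Without the male iBAT library 4 of the list were lower, against 7.

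White fat markers as a list sat near the median of all genes, at 0.24 over 26 tested of 34 listed, with none higher and 3 lower in all 3 scalings (7 lower with the values as deposited, and 3 or 4 without the female iBAT, the male iBAT or the male sWAT library). Without the male sWAT library 6 were higher, against 1. The 3 were Slc7a10, the amino acid transporter ASC-1, at 3.03 and 7.44 FPKM in iBAT and 20.8 and 44.8 FPKM in sWAT (−1.86 ± 0.54, adjusted p = 0.00945), Sfrp4, a secreted inhibitor of Wnt signalling, at 2.86 and 1.68 FPKM in iBAT and 21.9 and 11.0 FPKM in sWAT (−1.8 ± 0.52, adjusted p = 0.00906), and Ccl2, a chemokine, at 1.12 and 0.533 FPKM in iBAT and 8.45 and 4.62 FPKM in sWAT (−1.44 ± 0.38, adjusted p = 0.00559). The call on Slc7a10 was lost without the female iBAT library, and that on Sfrp4 without the male iBAT or the female sWAT library. The list's median was 0.73 within females and −0.39 within males, each relative to all genes of that sex, and with 1 library a depot this was not tested. Several general fat cell genes of the list, among them Plin1, Lipe and Pparg, had their lowest value in the female sWAT library. The female sWAT library also held the most epithelial and B cell transcripts, as given below, and their part in these differences was not tested.

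Lymphocyte genes made up most of the largest differences towards sWAT. All 20 T cell genes tested (24 listed) were lower in iBAT in all 3 scalings, with a median of −3.84, and all 18 B cell and antibody genes tested (26 listed) were lower, 17 in all 3 scalings, with a median of −4.72. Trbc2, the constant gene of the T cell receptor beta chain, had 1.71 and 1.21 FPKM in iBAT and 333 and 342 FPKM in sWAT (−6.54 ± 1.31, adjusted p = 0.00507), and Trac, of the alpha chain, 0.805 and 0.647 FPKM in iBAT and 193 and 193 FPKM in sWAT (−6.24 ± 1.36). Lck, the kinase behind the T cell receptor, had 0.58 and 0.432 FPKM in iBAT and 93.7 and 96.4 FPKM in sWAT (−5.42 ± 1.17), and Ccr7, which guides cells to lymph nodes, 0.173 and 0.24 FPKM in iBAT and 74.1 and 80.0 FPKM in sWAT (−5.44 ± 1.25). The 2 warm sWAT libraries were close to each other in each of these genes, and both warm iBAT libraries were under 2 FPKM. The cold sWAT libraries, whose spread enters the test, differed widely. Trac had 62.3 and 1.09 FPKM there, and the T cell list summed to 333 and 9.24 FPKM. The T cell list summed to 8.06 and 8.10 FPKM in iBAT and 1134 and 1159 FPKM in sWAT, with 18 of its 20 measured genes under 1 FPKM in each iBAT library. Of the 18 measured B cell and antibody genes, 14 and 13 were under 1 FPKM in iBAT. In both lists most genes thus passed the filter through sWAT and had to come out lower, and their counts are a description. In bulk tissue, fewer cells of a type and less RNA per cell cannot be told apart.

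Cd79b and Cd79a, signal chains of the B cell receptor, had 0.962 and 1.11 FPKM in iBAT and 172 and 166 FPKM in sWAT (−5.81 ± 1.43) and 0.766 and 0.884 FPKM in iBAT and 128 and 126 FPKM in sWAT (−5.56 ± 1.38). Both calls were lost without the male iBAT library. The fit of the warm libraries alone called both (adjusted p = 0.000395 for each). Igkc, the kappa light chain constant gene, spread far more, at 167 and 12.4 FPKM in iBAT and 10419.8 and 1846 FPKM in sWAT (−5.96 ± 1.88, adjusted p = 0.0234), and was not called without the male iBAT or the female sWAT library. Ighm, of the IgM heavy chain, had 9.06 and 7.22 FPKM in iBAT and 515 and 368 FPKM in sWAT (−5.01 ± 0.49, adjusted p = 0.00122). The B cell and antibody list summed to 204.6 and 25.98 FPKM in iBAT and 13250 and 3102 FPKM in sWAT. Antibody and receptor segments resemble each other, so the split of reads among them is uncertain. The chemokine Ccl5, made by T cells, had 1.67 and 1.76 FPKM in iBAT and 499.6 and 315 FPKM in sWAT (−6.62 ± 1.57, adjusted p = 0.00903), the largest difference towards sWAT among the genes named. It was not called without the male iBAT library, but was in the fit of the warm libraries alone (adjusted p = 0.000423).

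Division genes were lower in iBAT with the lymphocyte genes. All 17 tested of 24 listed were lower, 14 in all 3 scalings, with a median of −1.65. Of the 18 measured, 13 and 15 were under 1 FPKM in the iBAT libraries and 1 in each sWAT library, so most passed the filter through sWAT and had to come out lower. Birc5 had 0.605 and 0.435 FPKM in iBAT and 15.2 and 9.85 FPKM in sWAT (−2.55 ± 0.28, adjusted p = 0.00122), Top2a 0.128 and 0.0108 FPKM in iBAT and 9.89 and 6.38 FPKM in sWAT (−2.50 ± 0.31) and Mki67 0.0849 and 0.0275 FPKM in iBAT and 6.38 and 3.97 FPKM in sWAT (−1.95 ± 0.23). Both sWAT libraries were above both iBAT libraries in each, and which cells carried them was not tested.

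Antigen presentation and macrophage genes were also higher in sWAT, with medians nearer 0. Of 15 antigen presentation genes tested (19 listed) 14 were lower in iBAT, 12 in all 3 scalings, around −2.46, and of 14 macrophage genes tested (22 listed) 13 were lower, 9 in all 3 scalings, around −1.72. H2-Aa, a class II histocompatibility gene with close relatives, had 83.3 and 50.9 FPKM in iBAT and 837 and 797 FPKM in sWAT (−3.06 ± 0.43). Ctss, a protease that prepares antigen, had 11.8 and 8.68 FPKM in iBAT and 217 and 142 FPKM in sWAT (−3.41 ± 0.43). Csf1r, the growth factor receptor of macrophages, had 9.62 and 8.87 FPKM in iBAT and 47.7 and 53.1 FPKM in sWAT (−1.75 ± 0.16, adjusted p = 0.000938), and Mrc1, the mannose receptor, 5.52 and 4.23 FPKM in iBAT and 26.5 and 27.3 FPKM in sWAT (−1.68 ± 0.15). The macrophage count was 8 without the male iBAT library. Of the 15 measured antigen presentation genes, 6 and 7 were under 1 FPKM in the iBAT libraries and 0 in each sWAT library. Of the 14 measured macrophage genes, 3 and 4 were under 1 FPKM in iBAT and 0 in each sWAT library. Genes that passed the filter through sWAT alone had to come out lower, so the filter may have fixed part of both counts.

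Interferon-induced genes were lower for 14 of 17 tested (26 listed), 7 of them in all 3 scalings, with a median of −0.98. Irf7, the factor of type I interferon induction, had 1.57 and 1.66 FPKM in iBAT and 24.0 and 9.02 FPKM in sWAT (−2.03 ± 0.43, adjusted p = 0.00361). It was highest in the female sWAT library. The count lower was 9 without the female and 8 without the male iBAT library. Of the 18 measured, 3 and 5 were under 1 FPKM in iBAT and 0 and 1 in sWAT, so the filter may have fixed part of the count.

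Matrix genes were lower in iBAT for 21 of 28 tested (32 listed), 14 in all 3 scalings, and none was higher, with a median of −0.67. Col1a1, of type I collagen, had 17.1 and 13.3 FPKM in iBAT and 82.1 and 53.1 FPKM in sWAT (−1.49 ± 0.23, adjusted p = 0.00165). Among genes of remodelling, Mmp2, a gelatinase, had 25.1 and 21.2 FPKM in iBAT and 203 and 127 FPKM in sWAT (−2.17 ± 0.31), Mmp14, which activates it, 9.50 and 6.72 FPKM in iBAT and 82.4 and 49.3 FPKM in sWAT (−2.27 ± 0.45), and Timp2, the inhibitor that binds both, 24.5 and 25.6 FPKM in iBAT and 199 and 167 FPKM in sWAT (−2.24 ± 0.26). The basement membrane collagen Col4a2 had 57.6 and 46.8 FPKM in iBAT and 39.7 and 61.5 FPKM in sWAT and was not called (0.64 ± 0.31, adjusted p = 0.857). The count was 13 without the male iBAT library.

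Fibroblast and progenitor genes showed the same direction, 15 of 19 tested (23 listed) lower, 13 in all 3 scalings, around −1.64. Pdgfra, the receptor that marks fat cell progenitors, had 4.24 and 4.15 FPKM in iBAT and 17.2 and 21.2 FPKM in sWAT (−1.38 ± 0.19, adjusted p = 0.0013). Dpp4, of interstitial progenitors, had 1.48 and 1.4 FPKM in iBAT and 22.3 and 15.7 FPKM in sWAT (−2.44 ± 0.30), and Dpt, a matrix protein of fibroblasts, 47.4 and 59.8 FPKM in iBAT and 309 and 438 FPKM in sWAT (−2.19 ± 0.22). Dlk1, a preadipocyte protein, was the 1 member higher, at 3.36 and 2.12 FPKM in iBAT and 0.313 and 0.306 FPKM in sWAT (2.07 ± 0.29, adjusted p = 0.00626).

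Vessel genes were called in both directions, lower less often than all genes. Of 19 endothelial genes tested (22 listed), 6 were higher and 2 lower in all 3 scalings, against 10.4% and 20% of all genes. Cdh5, the cadherin of endothelial junctions, had 63.5 and 53.8 FPKM in iBAT and 27.1 and 36.9 FPKM in sWAT (1.44 ± 0.21, adjusted p = 0.0122) and Kdr, a receptor of vascular growth factor, 41.1 and 26.3 FPKM in iBAT and 13.6 and 20.5 FPKM in sWAT (1.51 ± 0.26, adjusted p = 0.0209), and neither call held without the female iBAT or the female sWAT library. No gene of the list was called higher without the female iBAT or without the female sWAT library, and 3 were without the male iBAT library or in the fit of the warm libraries alone. Vegfa, the growth factor itself and a member of the thermogenic list, had 72.4 and 65.6 FPKM in iBAT and 17.0 and 29.6 FPKM in sWAT (2.15 ± 0.27, adjusted p = 0.00415). Lower were Plvap, of fenestrated vessels, at 7.63 and 9.59 FPKM in iBAT and 52.7 and 57.7 FPKM in sWAT (−1.98 ± 0.20) and Lyve1, of lymphatic vessels, at 1.93 and 2.07 FPKM in iBAT and 11.7 and 16.4 FPKM in sWAT (−1.74 ± 0.19).

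Skeletal muscle transcripts ran with iBAT. Their 35 genes in the table summed to 3475 and 2662 FPKM in iBAT and 152.9 and 88.47 FPKM in sWAT. Of 32 tested (41 listed), all had both iBAT values above both sWAT values, and 13 were called higher, 11 in all 3 scalings. Their median difference was 4.44, the largest of all lists. Of the 35, 16 and 22 were under 1 FPKM in the sWAT libraries and 3 and 4 in iBAT, so many passed the filter through iBAT and the count of 32 was partly fixed by it. Ckm, the creatine kinase of muscle, had 482 and 405 FPKM in iBAT and 8.34 and 1.6 FPKM in sWAT (7.06 ± 2.69) and missed the threshold with an adjusted p of 0.0751, against 0.00288 in the fit of the warm libraries alone, which called all 32. Mb, myoglobin, had 67.2 and 66.0 FPKM in iBAT and 0.844 and 0.467 FPKM in sWAT (5.93 ± 0.94, adjusted p = 0.00441). Without the female iBAT, male iBAT or male sWAT library 2 genes of the list were called, and without the female sWAT library 3.

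The cold libraries, whose spread enters the test, differed more: the list summed to 78.63 and 1598 FPKM in iBAT and 130.2 and 3012 FPKM in sWAT at 10 °C. Several genes of brown fat are also genes of muscle. The cold female iBAT library had Ckm at 0.29 FPKM, Cox6a2 at 0 FPKM, Mb at 21.7 FPKM, Cox7a1 at 2711 FPKM and Cpt1b at 243 FPKM, at another temperature. Ckmt2 had 0 and 18.3 FPKM in cold iBAT and 0.201 and 14.8 FPKM in cold sWAT. For Cox7a1, Cpt1b, Cox6a2, Ckmt2, Ucp3, Fitm1 and the other genes that both tissues use, the part of muscle transcripts in the warm difference was not tested.

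Epithelial and mammary transcripts marked 1 library. The 12 genes of the list in the table summed to 1660 FPKM in the female sWAT library and 303.7 in the male one, and to 103.7 and 39.93 FPKM in iBAT. Epcam, an adhesion protein of epithelia, had 3.32 and 0.029 FPKM in iBAT and 64.6 and 1.03 FPKM in sWAT (−1.88 ± 2.03, adjusted p = 0.324). Krt14, a basal keratin, had 0.446 and 0 FPKM in iBAT and 20.9 and 0.049 FPKM in sWAT, and Elf5, a factor of milk-forming cells, 1.5 and 0 FPKM in iBAT and 28.3 and 0 FPKM in sWAT. Only Trf, which encodes transferrin, was called, at 74.4 and 33.5 FPKM in iBAT and 1184 and 294 FPKM in sWAT (−2.96 ± 0.78, adjusted p = 0.00932), and not without the male iBAT library. Without the male sWAT library 3 were. For the list, the median difference was −2.84 within females and 0.23 within males.

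Nerve, mural and red cell genes were mixed. Of 11 Schwann cell and nerve genes tested (20 listed) 3 were higher in all 3 scalings (1 without the male iBAT or the female sWAT library) and 2 were lower with the values as deposited, neither in all 3 scalings, and Ntrk3, a neurotrophin receptor, led at 64.5 and 72.2 FPKM in iBAT and 2.72 and 2.51 FPKM in sWAT (4.83 ± 0.15, adjusted p = 0.00019). S100b, a calcium-binding protein of glia that brown fat cells also make, had 19.2 and 21.8 FPKM in iBAT and 2.20 and 3.78 FPKM in sWAT (3.03 ± 0.56, adjusted p = 0.0101), a call lost without the male iBAT or the female sWAT library, while the Schwann cell factor Sox10 had 2.08 and 1.11 FPKM in iBAT and 21.6 and 0.482 FPKM in sWAT and was not called. Of 10 smooth muscle and pericyte genes (14 listed) 3 were higher and, with the values as deposited alone, 1 was lower, with Rgs5 at 59.1 and 45.2 FPKM in iBAT and 19.2 and 23.2 FPKM in sWAT (1.83 ± 0.29, adjusted p = 0.0114), and 1 was higher without the female iBAT, the male iBAT or the female sWAT library. Of 2 mesothelial genes tested (9 listed) 1 was higher in all 3 scalings, but not without the female iBAT library, and the other was called lower, but not in all 3 scalings.

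Haemoglobin varied between libraries of a depot. Hba-a2, of the alpha chain, had 82.9 and 7041 FPKM in iBAT and 60.6 and 996 FPKM in sWAT, and of the 5 red cell genes tested (12 listed) limma called 0, with 0 at an unadjusted p under 0.05 and 2 called higher without the female iBAT library. Both warm male libraries were above both warm female libraries in Hba-a2. At 10 °C the female library was the higher one in each depot, with 2115 and 1621 FPKM in iBAT and 1690 and 1141 FPKM in sWAT. The globin genes are near copies of each other.

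**Figure D4:**
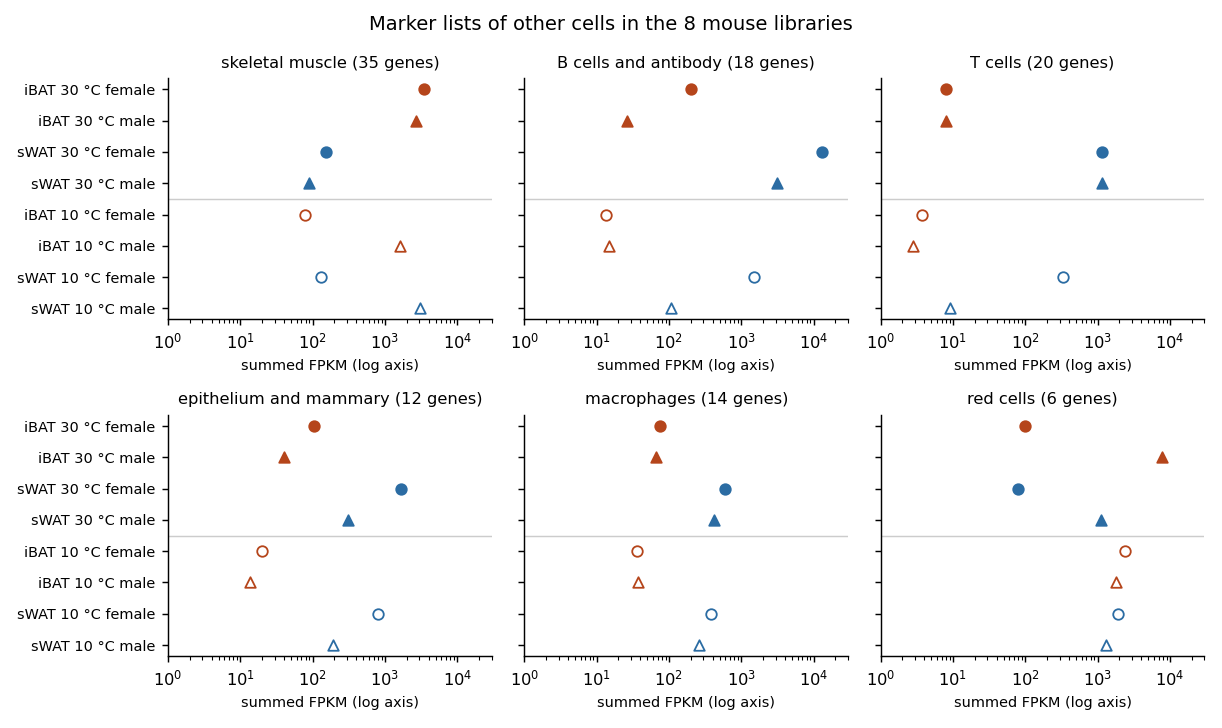
Summed FPKM (log axis) of 6 marker lists of other cells in each of the 8 mouse libraries, iBAT in red and sWAT in blue, circles female and triangles male, filled at 30 °C and open at 10 °C. At 30 °C the muscle sum is higher in both iBAT libraries, and the lymphocyte and macrophage sums are higher in both sWAT libraries. The red cell sum is higher in both male libraries at 30 °C and in the female library of each depot at 10 °C.

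**Figure D5:**
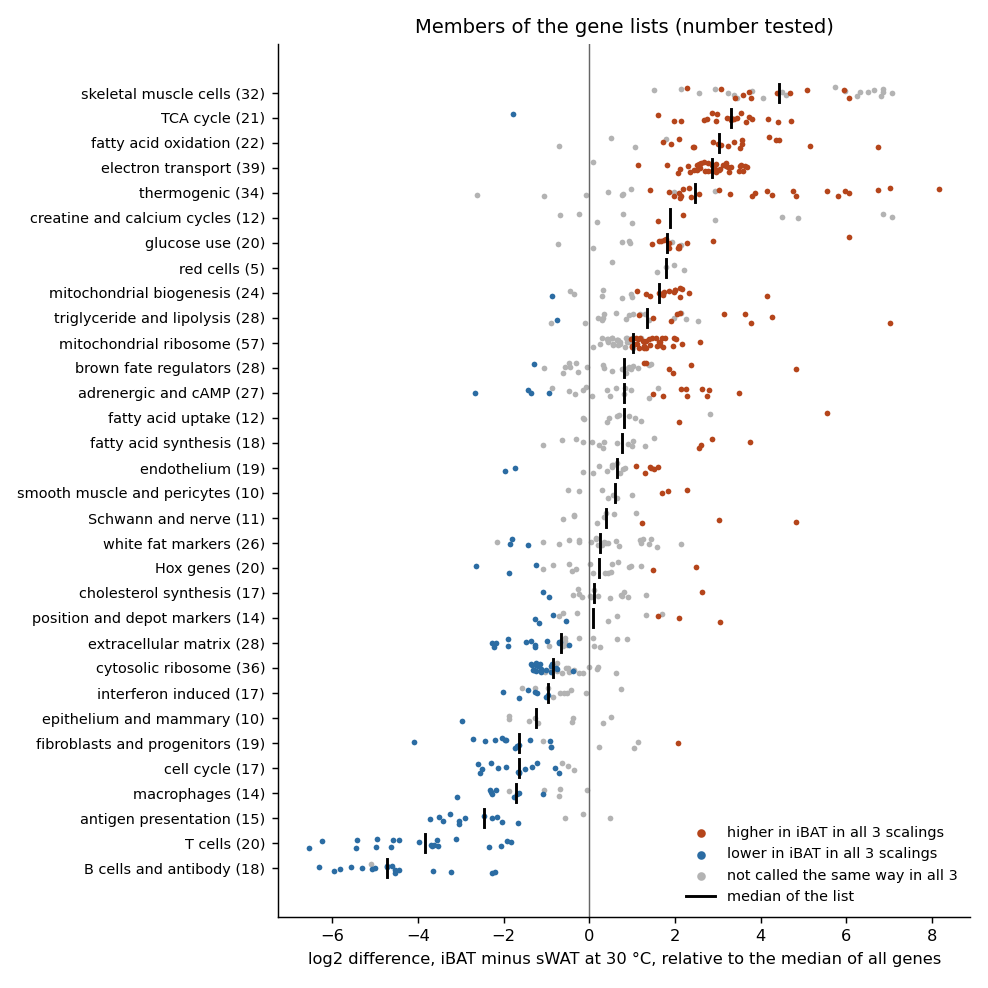
Each point is a tested gene of a list, at its log2 difference of iBAT minus sWAT at 30 °C relative to the median of all genes; black bars are list medians and colours mark calls made the same way in all 3 scalings. Lists with fewer than 5 genes tested are not drawn. The skeletal muscle list, many of whose genes passed the filter through iBAT, lies furthest to the right by its median of 4.44. The respiratory lists lie to the right with medians of 2.87 to 3.31 and the lymphocyte lists to the left with medians of −3.84 and −4.72.

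The warm depot difference was then set against that at 10 °C, from 4 other libraries. At 10 °C, 3194 genes (29.9%) were called between the depots, 248 (2.32%) higher in iBAT. The difference between the 2 contrasts, tested as an interaction, was called for 10 genes (0.0936%), 6 (0.0561%) with a warm value above the cold one and 4 (0.0374%) below. Cox7a1 was 8.16 at 30 °C and 1.76 ± 0.32 at 10 °C (interaction 6.34 ± 0.45, adjusted p = 0.0191). In sWAT, Cox7a1 stood at 5.80 and 6.54 FPKM at 30 °C against 769.7 and 1516 FPKM at 10 °C. The muscle list summed to 130.2 FPKM in the cold female sWAT library, which had the lower of these cold values, and to 3012 FPKM in the male one. Each difference is relative to its own median, so the interaction is not exactly their subtraction. Cidea went from 7.03 to 1.67 ± 0.24 (interaction 5.29 ± 0.34, adjusted p = 0.0191), and Cpt1b from 6.74 to 1.6 ± 0.36 (interaction 5.07 ± 0.51, adjusted p = 0.0445).

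Ntrk3 stood at 4.83 in the warm and 2.61 ± 0.15 in the cold (interaction 2.17 ± 0.22, adjusted p = 0.0445). Macrod1, an ADP-ribose hydrolase of mitochondria, was at 141 and 137 FPKM in iBAT and 12.9 and 13.1 FPKM in sWAT in the warm (interaction 2.29 ± 0.17, adjusted p = 0.0191). Itpk1, an inositol phosphate kinase, completed the 6 (interaction 1.96 ± 0.20, adjusted p = 0.0445). Acsl5, an acyl-CoA synthetase, ran the other way. It stood at 19.0 and 16.6 FPKM in iBAT and 31.4 and 29.0 FPKM in sWAT in the warm, a difference called with the values as deposited alone, and at 387 and 318 FPKM in cold iBAT and 91.9 and 64.9 FPKM in cold sWAT (interaction −2.85 ± 0.29, adjusted p = 0.0445). Sept9, a cytoskeletal septin, was at −0.89 in the warm and 2.12 ± 0.24 in the cold (interaction −3.06 ± 0.33, adjusted p = 0.0482), and the remaining pair were Tm6sf1 (−2.03 ± 0.21, adjusted p = 0.0445) and Trav6-6, a T cell receptor segment (−2.51 ± 0.25, adjusted p = 0.0445).

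Ucp1 was not among the calls, at 5.97 in the warm and 1.65 ± 0.66 in the cold (interaction 4.27 ± 0.94, adjusted p = 0.112). The number of interaction calls turned on single libraries. It was 1543 without the female sWAT library at 10 °C, 14 without the male one, and 0 in limma without any 1 of the other 6 mouse libraries, where 1345 to 2207 genes had an unadjusted p under 0.05, against 2194 with all 8 libraries. Without the female sWAT library at 10 °C, Cox7a1 had an interaction of 6.96 ± 0.25 (adjusted p = 0.000473) and Ucp1 of 5.03 ± 0.95 (adjusted p = 0.0282).

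By list, the depot medians at 30 °C and 10 °C stood side by side as follows, each relative to all genes of its own comparison. For electron transport they were 2.87 and 1.18, for the TCA cycle 3.31 and 1.45, for fatty acid oxidation 3.03 and 1.10, and for thermogenic genes 2.46 and 1.34. Genes called higher in these lists numbered 15, 12, 4 and 13 at 10 °C. For B cell genes the medians were −4.72 and −1.65 and for T cell genes −3.84 and −1.15, and the cold sWAT libraries held 333 and 9.24 FPKM of T cell transcripts in all, against 1134 and 1159 FPKM in the warm. Whether a list's median differed between temperatures was not tested.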

How the data were processed

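RNA-seq of mouse iBAT and sWAT was taken from 1 table of FPKM, which the authors deposited with 1 column per library and which was used without further scaling. CASAVA 1.8 is named per the submitters' processing notes. For the aligner, the annotation, the genome build and the read counts, nothing was given in the sources used here, so precision was read from the spread between libraries. Column headings were matched to the sample numbers in the titles.

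A gene was kept where 2 or more of the 8 mouse libraries reached 1 FPKM, and log2(FPKM + 1) was fitted with limma 3.58.1 in R 4.3.3 (lmFit, contrasts, eBayes with a variance trend, two-sided, Benjamini-Hochberg over the 10689 genes tested). Residual degrees of freedom were 4. The fit covers the 4 mouse groups of depot and temperature, and was tested on simulated data first. Relative depth was read from values of low genes that are small whole multiples of each other. Alternatives were another pseudocount, filter, scaling, variance model or covariate, a block, leaving out each library, and a fit of the 4 warm libraries.

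The comparison, the gene lists and the members were chosen with earlier results of these data known. Named genes are up to 15 with the largest change in each direction, up to 5 members of each list with the smallest adjusted p in each direction, a list of depot genes, isoform pairs, and up to 5 interaction genes in each direction. Not all genes that this rule gives are named. Atp5b, Elf5, Hadha, Hadhb, Hoxc6, Itpk1, Mmp14, Nrg4, Otop1, Prkar2b, Sdhb, Suclg2, Uqcrc1 and Vegfa fall outside it and were chosen after their values were seen.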

Additional observations from a re-analysis of the deposited data

Results flagged for a closer look

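The depot difference at 30 °C differed from that at 10 °C by the interaction test for 10 of the genes named, with the change given relative to the median of all genes. It was larger in the warm for Cox7a1 by 6.34, Cidea by 5.29, Cpt1b by 5.07, Macrod1 by 2.29, Ntrk3 by 2.17 and Itpk1 by 1.96 on the log2 scale. It was −3.06 for Sept9, −2.85 for Acsl5, −2.51 for Trav6-6 and −2.03 for Tm6sf1. The number of such calls ranged from 0 to 1543 when 1 library was left out.

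The female and the male libraries gave depot differences of opposite sign, relative to all genes, for 9 of the 152 genes named (Me3 not counted). Opposite signs were found for 1565 of the 10689 genes tested (14.6%). With 1 library of each sex and depot, this was not tested. The female difference minus the male one was 1.25 for Adipoq, 0.96 for Adrb3, 0.25 for Atp5g3, 1.39 for Hoxc6, 1.92 for Lep and 0.76 for Tfam. It was −3.56 for Elf5, −3.86 for Krt14 and −3.40 for Sox10, each of which had its highest value in the female sWAT library.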

How the results depend on the processing

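Median-ratio scaling gave 2025 genes higher and 2866 lower, and quantile normalization 2500 and 2334, against 1144 and 5126. Genes called the same way in all 3 scalings numbered 3250, of which 2138 were lower. When 1 library was left out, the calls ranged from 3562 to 6828, those higher from 728 to 1273, those lower from 2812 to 5556, and the interaction calls from 0 to 1543. An arm left with 1 library was assumed to vary like the other groups. Interaction calls, 10 as reported, were 3 with median-ratio scaling, 6 without the filter on low values, 6 with sex as a covariate and 4 without the variance trend. The cause of these shifts was not tested.

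With the temperature and sex code of the titles as a replicate block, 6592 genes were called, 1255 higher and 5337 lower, and the interaction was called for 48. Libraries that share a code deviated together (r = 0.406 for the warm and 0.369 for the cold libraries), but the labels do not say that they share an animal, and only 2 such pairs exist per depot comparison. The fit of the warm libraries alone called 6367 genes.

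Of 121 called genes named (Me3 not counted), 97 kept the call in every alternative run and 24 lost it in at least 1. No gene among those counted changed direction while called. Of 1360 list counts in the alternatives, 1149 were within 1.5 times the reported count. Read counts are not given, so the limit that depth sets on genes of low FPKM is unknown.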
